A study of Mus musculus with 9 samples.

Results

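Transcripts of 8 genes that mark brain pericytes in general use were followed through single-cell RNA sequencing of mouse brain. They are Kcnj8, Abcc9, Pdgfrb, P2ry14, Rgs5, Vtn, Atp13a5 and Art3. They were listed by name as known pericyte genes, with earlier results of these data known, and all 8 have a row among the 18634 genes of the deposited table. The study collected brainstem, cortex and hypothalamus from C57BL/6 mice of 9 to 11 weeks, all at ZT12 (lights off). The paper's methods give the strain as C57BL/6 J. The mice had slept normally (NS), had been kept awake for 12 h (SD), or had been kept awake for 12 h and then left to recover (RS). The labels give the recovery as 24 h in one place and as 12 h in another. Each of the 9 libraries pooled tissue of 3 mice after papain dissociation and bead removal of myelin, and no group was replicated. Cells of a library share its mice and its preparation, so they are not replicates of a condition.

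Pericytes are mural cells on the wall of capillaries, and in the brain they take part in setting capillary flow and in keeping the blood-brain barrier. Platelet-derived growth factor from the endothelium draws them to the vessel through the receptor Pdgfrb. Their potassium channels, among them the ATP-sensitive channel of Kcnj8 and Abcc9, couple the energy state of the cell to its membrane potential.

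The 9 libraries are numbered in the order of the table. They held 2575 to 3916 cells, 1522766 to 5488950 transcripts counted by unique molecular identifiers (UMIs), and a median of 402 to 1055 UMIs per cell. Library 7 was taken as brainstem NS, because it holds all 1999 barcodes read here from the study's list of brainstem NS cells, against 5 to 13 of them in each other library. No region or sleep group is assigned here to the remaining 8 libraries, so their values stand singly and no groups are compared. Of 29015 distinct barcodes, 549 occurred in more than 1 library. Pituitary hormone genes, with Gh and Prl among them, took 30.03% to 37.9% of the UMIs in libraries 4, 5 and 6 and under 0.01% in the others. Levels are UMIs summed over cells and given per 1000000 UMIs of those cells (CPM). Intervals are exact at 95% and cover counting error only. The kit reads transcript ends, so a CPM counts molecules and is not scaled to gene length.

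Kcnj8, which encodes the pore subunit Kir6.1 of the ATP-sensitive potassium channel, lies on chr6:142564837-142571614 of GRCm38, minus strand. Abcc9, which encodes its regulatory subunit SUR2, lies on chr6:142587862-142702315 on the same strand, 16247 bases away. The sequences before the start sites of both are shown because the channel genes are neighbours. Those of Vtn and Rgs5 are shown because these genes were also high in other cell types (below). They come from RefSeq on GRCm38.p6 and are read 5′ to 3′ on the strand of the gene, without the bases inside the annotated gene. Capitals mark matches to any of 5 short motifs, which were chosen after the levels of the genes had been seen.

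Kcnj8, chr6:142571615-142571864, minus strand: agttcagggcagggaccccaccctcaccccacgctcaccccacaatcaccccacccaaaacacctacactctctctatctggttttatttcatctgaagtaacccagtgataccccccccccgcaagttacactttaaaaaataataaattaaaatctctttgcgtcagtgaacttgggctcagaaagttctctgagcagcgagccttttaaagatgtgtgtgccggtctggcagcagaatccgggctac
Abcc9, chr6:142702316-142702524, minus strand: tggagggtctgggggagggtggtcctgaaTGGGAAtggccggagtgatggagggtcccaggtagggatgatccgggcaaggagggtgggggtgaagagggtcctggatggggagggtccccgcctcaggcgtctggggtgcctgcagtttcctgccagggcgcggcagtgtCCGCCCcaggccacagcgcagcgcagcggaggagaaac
Vtn, chr11:78498870-78499090, plus strand: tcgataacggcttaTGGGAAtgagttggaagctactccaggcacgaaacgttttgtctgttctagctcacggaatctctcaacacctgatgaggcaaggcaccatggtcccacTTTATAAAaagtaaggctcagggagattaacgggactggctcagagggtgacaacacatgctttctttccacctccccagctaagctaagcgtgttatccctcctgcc
Rgs5, chr1:169655251-169655500, plus strand: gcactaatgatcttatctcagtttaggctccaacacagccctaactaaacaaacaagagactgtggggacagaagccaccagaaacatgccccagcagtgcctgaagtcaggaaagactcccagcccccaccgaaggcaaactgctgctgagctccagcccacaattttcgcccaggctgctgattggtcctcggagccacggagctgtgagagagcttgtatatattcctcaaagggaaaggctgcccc

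The RBPJ core TGGGAA was found once each for Abcc9 and Vtn, and on either strand it stood in 21.6% of 32851 promoters over the same 250 bases. The GC box GGGCGG was found once for Abcc9, on the strand opposite to the gene, and in 32.7% of promoters. The TATA box TATAAA was found for Vtn on both strands, in 2 overlapping matches, and in 12.4% of promoters. The FOX core TGTTTAC (3.17% of promoters) and the T-box core GGTGTGA (3.33%) were not among the letters of these windows. Kcnj8 and Rgs5 held none of the 5, nor did Atp13a5, whose window is not shown. Art3 and P2ry14 have several entries, 3 and 4, and were not searched. No motif searched was present in all of the windows.

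In library 7 the listed cells fell into 12 named types, of which 1 held a single cell and is left out. Pericytes were 168 cells with 147927 UMIs and a median of 726.5 UMIs per cell. The types came from clustering on many genes, so the levels by type are a description and carry no test. All 8 genes were highest in pericytes, as were 8.15% of the 5703 genes with at least 50 UMIs. With only cells of at least 1000 UMIs, 6 of the 8 were, and Kcnj8 (0.834) and Rgs5 (0.885) fell below the next type. Kcnj8 was at only 71.6 CPM in those pericytes, and without an interval its turn is not settled beyond counting error. Of the 35 pericytes of that depth, 27 were fibroblast-like by the clusters described later. With 10 CPM added to both sides, 7 of the 8 stood at least 3 times as high in pericytes as in any other type, against 0.456% of those genes. Rgs5, at 2.09, was the exception. In the cells of at least 1000 UMIs the plain ratio to the next type was 9.76 for Vtn and 5.17 for Art3, and under 3 for the others, at 2.70 for Abcc9, 2.08 for P2ry14, 1.89 for Pdgfrb and 1.56 for Atp13a5. The 8 genes summed to 14081 CPM in pericytes (13483 to 14699) and to 2246 CPM in arterial vascular smooth muscle cells (VSMCA), the next type. Pericytes held 52.2% of the UMIs of the 8 genes in listed cells, from 31.0% for Rgs5 to 74.6% for Art3.

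**Figure D1:**
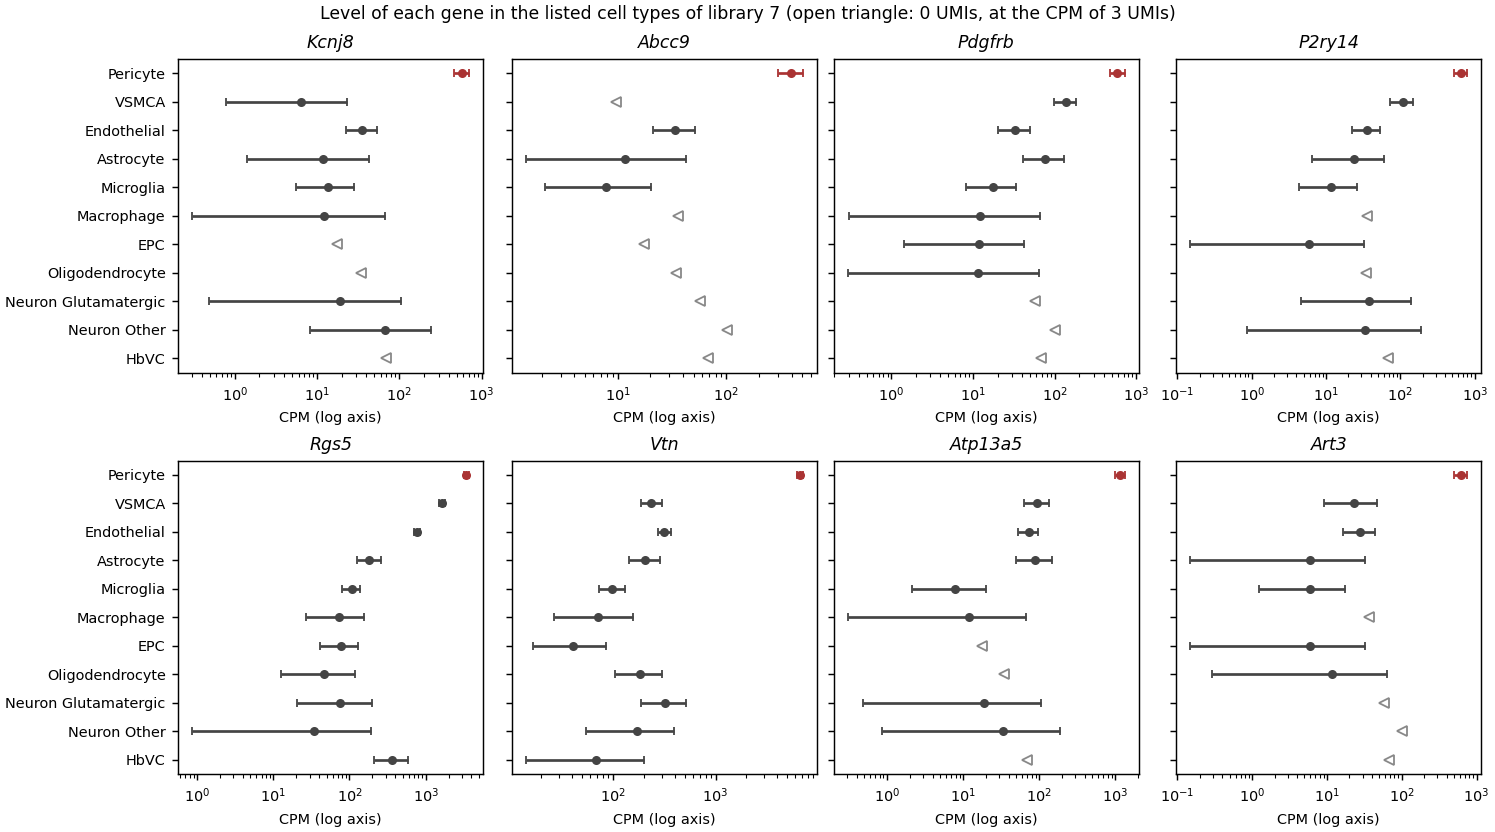
Level of each of the 8 genes in 11 listed cell types of library 7, in CPM on a log axis, with exact 95% counting intervals. Pericytes (red) lie highest in each panel, at 392 CPM for Abcc9 to 6665 CPM for Vtn, and open triangles mark types with 0 UMIs at the level that 3 UMIs would give.

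Kcnj8 stood at 575 CPM in pericytes (459 to 711), with a UMI in 35.1% of the cells (27.9% to 42.8%). In microglia, immune cells that should lack it, 1.28% of cells had a UMI, at a median of 796 UMIs per cell. The next type, the neurons listed as other, had 67.9 CPM from 2 UMIs, which gave a ratio of 8.46 with an interval from 2.27 to 71.0. VSMCA, the mural cells of arteries, also had 2 UMIs of Kcnj8, but in 230 cells with a median of 1319.5 UMIs. The pore subunit was 88.5 times as high in pericytes as in VSMCA (23.8 to 743).

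Abcc9 was at 392 CPM in pericytes (298 to 507) and had a UMI in 23.2% of the cells, against 0.729% of microglia. No UMI of it was found in the VSMCA, where 3 counts would give 9.74 CPM. The level of Abcc9 in pericytes was 40.3 times that of 3 counts. Endothelial cells came next at 33.9 CPM (21.3 to 51.4). Both channel subunits were thus below the level of 3 counts in the listed arterial mural cells.

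Pdgfrb, on chromosome 18, encodes the beta receptor for platelet-derived growth factor and is a marker of mural cells in general. It reached 588 CPM in pericytes (471 to 725) and 136 CPM in VSMCA (98.3 to 184), a ratio of 4.31 (2.95 to 6.39). A UMI was found in 36.3% of pericytes, 15.2% of VSMCA and 1.28% of microglia. P2ry14, on chr3:59113855-59153618, encodes a receptor for UDP-glucose and related sugars. It was at 656 CPM in pericytes (532 to 800) and 107 CPM in VSMCA (73.7 to 150), 6.12 times as high in pericytes (4.09 to 9.38). Both receptors were thus also present in VSMCA above the microglial level, at 17.7 CPM for Pdgfrb and 11.8 CPM for P2ry14. P2ry14 lies inside Med12l on the opposite strand, and how reads of the overlap were assigned was not tested.

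Rgs5, on chr1:169655501-169695813, encodes a regulator that shortens G protein signals. Its level was 3441 CPM in pericytes (3148 to 3753) and 1642 CPM in VSMCA (1502 to 1792). It was the gene of the 8 that was most shared between the 2 kinds of mural cell, with a ratio of 2.10 (1.85 to 2.37) and a UMI in 73.2% and 54.8% of their cells. Endothelial cells followed at 766 CPM, well above microglia at 106 CPM. Of the UMIs of the 8 genes, Rgs5 made up 73.1% in VSMCA (69.7% to 76.4%), 58.0% in endothelial cells and 24.4% in pericytes.

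Vtn, on chr11:78499091-78502324, encodes vitronectin, a secreted glycoprotein of plasma and matrix that binds integrins. With 6665 CPM (6256 to 7095) it was the most abundant of the 8 in pericytes and was found in 92.9% of the cells. Microglia had a UMI of it in 7.83% of cells. Thinned to 500 UMIs, the share was 3.87% of 542 microglia and 87.8% of 164 pericytes, without cells of fewer UMIs. The next type, glutamatergic neurons, stood at 324 CPM, and the ratio was 20.6 (12.8 to 35.4).

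Atp13a5, on chr16:29231851-29378732, belongs to the P5-type ATPases. It was at 1149 CPM in pericytes (983 to 1336) and in 51.2% of the cells, 12.2 times the level of VSMCA (8.2 to 18.8). Atp13a5 has a processed pseudogene inside it on its own strand. Art3, on chr5:92331827-92414628, belongs to the ADP-ribosyltransferase family of membrane-anchored proteins. It was at 615 CPM in pericytes (495 to 755) and in 38.1% of the cells, 22.2 times the level of endothelial cells (13.3 to 39.1). Atp13a5 had a UMI in 0.729% of microglia and Art3 in 0.364%. Cxcl10 and Cxcl11 lie inside Art3 on the opposite strand, and a processed pseudogene, Gm2673, lies inside it on its own strand. Their share in the counts of Art3 was not tested. An antisense gene, 5330439B14Rik, lies likewise within Abcc9, and whether the counting used strand is not given in the sources used here.

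The label of the listed pericytes was checked against 12 other pericyte markers, and 8 of them were highest in these cells. The other 4 were Foxf2, highest in endothelial cells, and Slc38a11, Notch3 and Rgs4, highest in VSMCA. Among the 8 markers, Anpep rested on 7 UMIs and Ggt1 on 5. Cspg4, at 176 CPM (115 to 258), and Gper1, at 196 CPM (131 to 282), had intervals that held the VSMCA levels of 120 and 133 CPM. The genes that led the pericytes were of more than 1 kind. With 10 CPM added, the largest ratio to the next type was that of Lum, a matrix gene of fibroblasts, followed by Vtn and Art3, and Igf2 and Dcn, which fibroblasts also express, stood among the 20 highest with 7 of the 8 genes.

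The cells of library 7 were therefore clustered without the 8 genes, and clusters were named from fixed markers. Of the 168 listed pericytes, 117 lay in a pericyte-like cluster (median 671 UMIs), 46 in a fibroblast-like cluster (median 1244.5 UMIs) and 5 elsewhere. In the 46, the fibroblast marker Dcn had a UMI in 84.8% of cells and the pericyte marker Higd1b in 2.17%. In the 117 these shares were 2.56% and 85.5%. The 12 pericyte markers summed to 724 CPM in the 46, with a UMI in 41.3% of cells, and to 8207 CPM in the 117. Slc6a20a was the marker that held its level, at 505 CPM in the 46 (341 to 721) and 599 CPM in the 117 (445 to 790), and it gave 30 of the 43 marker UMIs of the 46. By most of these markers the 46 cells go against their listed name, and the level of each of the 8 genes is given for both sets.

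Kcnj8 and Abcc9 had no UMI at all in the 46 fibroblast-like cells, where 3 counts would give 50.5 CPM. In the 117 pericyte-like cells they stood at 1006 CPM (803 to 1246) and 695 CPM (528 to 898). These were 19.9 and 13.8 times the level of 3 counts in the 46. A UMI of Kcnj8 was found in 49.6% of the 117 and one of Abcc9 in 33.3%. Every UMI of the channel in these 2 sets of listed pericytes came from the pericyte-like cells.

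Vtn behaved differently. It was at 7836 CPM in the pericyte-like and 5473 CPM in the fibroblast-like cells, a ratio of 1.43 (1.25 to 1.64). It had 654 UMIs in the former, found in 95.7% of the cells, and 325 UMIs in the latter, found in 87.0% of the cells. Rgs5 fell on the side of the channel genes, at 5619 CPM against 118 CPM (ratio 47.7, 23 to 119).

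Atp13a5 stood at 1989 CPM in the pericyte-like and 33.7 CPM in the fibroblast-like cells, the latter from 2 UMIs. Art3 was at 1066 CPM against 16.8 CPM from 1 UMI, and P2ry14 at 1126 CPM against 33.7 CPM from 2 UMIs. Pdgfrb was between these and Vtn, at 851 CPM against 185 CPM (ratio 4.59, 2.42 to 9.61), with a UMI in 41.9% and 19.6% of cells. Pdgfrb and Vtn were thus the 2 genes of the set that kept a level above that of microglia in the fibroblast-like cells with intervals that did not overlap.

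**Figure D2:**
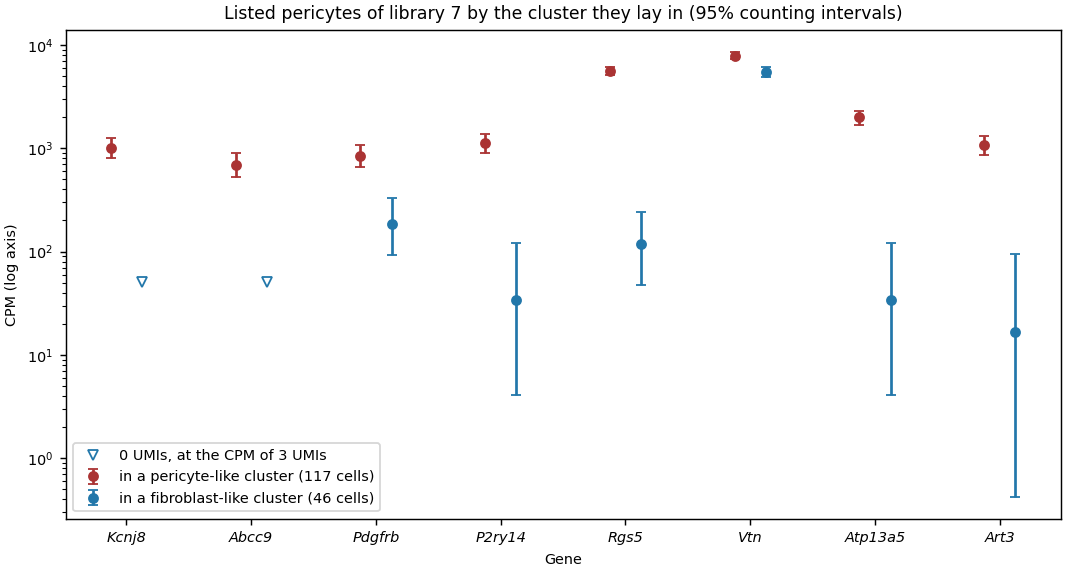
Levels of the 8 genes, in CPM on a log axis with exact 95% counting intervals, in the 117 listed pericytes of a pericyte-like cluster (red) and the 46 of a fibroblast-like cluster (blue). Open triangles mark 0 UMIs at the level that 3 UMIs would give, and the sets lie close together for Vtn only, at 7836 and 5473 CPM.

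With the pericytes limited to the 117, all 8 genes were highest in them, against 11.0% of 5572 genes, and all 8 passed 3 times the next type, against 0.520%. Art3 then had the largest ratio of all genes and Vtn the second, and 5 of the 8 largest ratios belonged to the set. Rgs5 was then at 3.42 times the level of VSMCA (3.01 to 3.89), and Pdgfrb to 6.24 times (4.20 to 9.37).

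A listed pericyte held a UMI of 3.89 of the 8 genes on average (SD 2.03 over the 168 cells of 1 library), and 70.2% of them held at least 3 (62.7% to 77.0%). In VSMCA 10.9% of cells did, in endothelial cells 5.76% and in microglia 0.729%. The counts in pericytes had 2 peaks, one at 1 gene and one at 4 to 5. The 117 pericyte-like cells had a median of 5 genes, with 96.6% at 3 or more. The 46 fibroblast-like cells had a median of 1, with 4.35% at 3 or more, and 29 of them held Vtn and no other gene of the set.

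**Figure D3:**
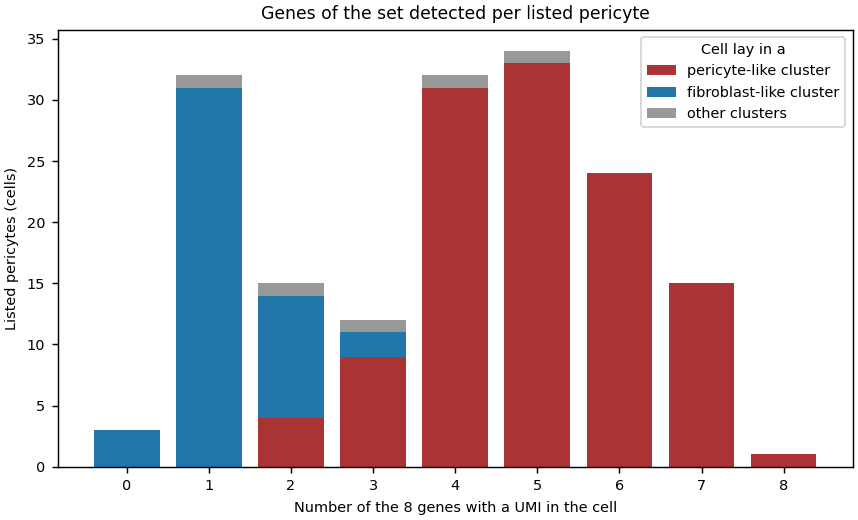
Listed pericytes of library 7 by how many of the 8 genes had a UMI in the cell, coloured by the cluster that held the cell. The peak at 1 gene holds 31 fibroblast-like cells and no pericyte-like cell, and the peak at 5 genes holds 33 pericyte-like cells.

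The same split bore on how often genes were found together. Over all listed pericytes, each of the 28 pairs of genes was found in the same cell more often than the product of their shares gives, by 1.01 to 1.55 times with a median of 1.28. Abcc9 with Art3 was highest, with 23 cells. Within the 117 pericyte-like cells the ratios ran from 0.879 to 1.16 with a median of 1.01, and 17 of the 28 were above 1. Kcnj8 and Abcc9, the 2 subunits of one channel, were found together in 17 of those cells, 0.879 times the product of their shares. At 500 UMIs per cell the median was 1.00 within the 113 of the 117 cells that had that many. These ratios are descriptions of sparse counts, and the cells share a library.

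Endothelial cells, the next neighbours of pericytes, were looked at in the same way. Of 573 listed endothelial cells, 41 lay in a second pericyte-like cluster of the library. They had a median of 1616 UMIs against 876.5 in the other 532, a UMI of an endothelial marker in 100% and one of a pericyte marker in 95.1%. These 41 cells held 95.7% of the P2ry14 UMIs of listed endothelial cells and 95.2% of those of Pdgfrb. The shares were 91.3% for Kcnj8 and 86.4% for Abcc9, while Atp13a5 had 38 of 47 UMIs there and Vtn 152 of 206.

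Kcnj8 was at 285 CPM in the 41 cells (176 to 435) and at 3.48 CPM in the 532 from 2 UMIs. Pdgfrb was at 271 CPM and at 1.74 CPM from 1 UMI, as was P2ry14, at 298 CPM in the 41. Rgs5 was the exception again, with 3541 CPM in the 41 cells and 411 CPM in the 532 (360 to 466), so that 52.5% of its endothelial UMIs lay in the 41. Abcc9 was at 258 CPM and at 5.22 CPM from 3 UMIs. Outside the 41, these 4 genes were not higher than in microglia (13.8 CPM for Kcnj8 and 7.89 CPM for Abcc9, each with an overlapping interval), while Rgs5 was above its 106 CPM there. Whether such a droplet held 1 cell or 2 was not tested.

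All 29571 cells were then clustered together without the 8 genes, which gave 29 clusters, 2 of them pericyte-like. The first held 659 cells (median 619 UMIs), of which 23.2% had a UMI of an endothelial marker. The second held 524 cells (median 1089.5 UMIs), of which 99.6% had one. Summed endothelial markers stood at 618 CPM in the first and 7706 CPM in the second, and summed pericyte markers at 6922 and 3177 CPM, so the second carried markers of both types. Together the 1183 cells, 4.00% of all, held 49.3% of the UMIs of the 8 genes. The first held 30.1% and the second 19.1%. Over the genes this ran from 38.4% for Pdgfrb, 44.5% for Rgs5 and 49.1% for Vtn to 70.7% for Kcnj8.

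The 2 clusters differed in how much of each gene they held. Vtn was 3.68 times as high in the first (3.43 to 3.96), Kcnj8 3.29 times (2.68 to 4.06) and Atp13a5 3.12 times (2.67 to 3.66). Art3 was 2.94 times, P2ry14 2.76 times, Abcc9 1.96 times and Pdgfrb 1.85 times as high in the first. Rgs5 differed least, at 4725 CPM in the first and 3387 CPM in the second (ratio 1.40, 1.31 to 1.48). In the 6 libraries with at least 20 cells of each cluster, 7 of the genes were higher in the first in 6 of 6, and Pdgfrb in 4 of 6.

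**Figure D4:**
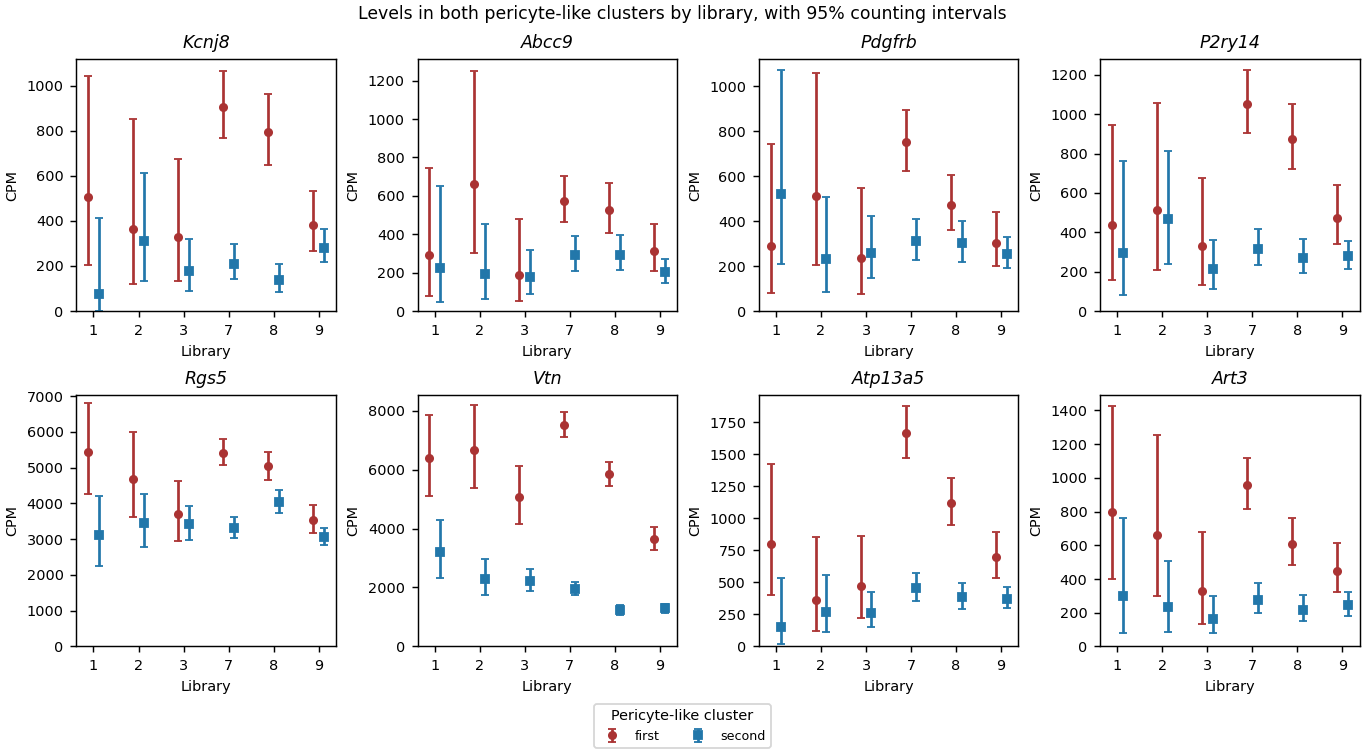
Levels of the 8 genes in the first (red circles) and second (blue squares) pericyte-like cluster of 6 libraries, in CPM with exact 95% counting intervals. The first cluster lies above the second in all 6 for 7 of the genes, while Pdgfrb in libraries 1 and 3 lies below.

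Over whole libraries, all 8 genes had their 3 highest levels in libraries 7, 8 and 9 and their 3 lowest in libraries 4, 5 and 6. Kcnj8 ran from 2.91 CPM in library 6 over a median of 9.19 CPM to 47.0 CPM in library 7, a ratio of 16.1 (9.70 to 28.7). Abcc9 ran from 0.471 CPM in library 5, a single UMI, over 7.90 CPM to 44.2 CPM in library 8. Both channel genes stood between these ends, at 6.57 to 17.1 CPM, in libraries 1 to 3.

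Pdgfrb ran from 3.83 over 31.0 to 69.1 CPM, and P2ry14 from 4.55 over 14.98 to 69.9 CPM. Rgs5 ran from 15.7 over 209 to 657 CPM and Vtn from 6.74 over 169 to 560 CPM. For these 4 genes library 6 was lowest and library 7 highest. For Rgs5, libraries 7 and 8 did not differ beyond counting error, at 657 and 655 CPM.

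Atp13a5 ran from 0.911 over 20.4 to 99.0 CPM and Art3 from 1.64 over 15.5 to 52.4 CPM, again from library 6 to library 7. Among the 8 steps between neighbouring libraries in the order of Abcc9, 7 had overlapping intervals, while for Vtn and Rgs5 only 2 did. Summed over the genes, library 7 had 1590 CPM and library 6 had 36.8 CPM, a ratio of 43.2 (37.6 to 49.95). It was 30.4 with mitochondrial, hemoglobin and pituitary hormone genes left out of the totals. Over the 9 libraries Pearson's r between pairs of the genes was 0.877 to 0.991. The points share the number of pericytes a library holds, and in some libraries other cells held more of a gene's UMIs (below).

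**Figure D5:**
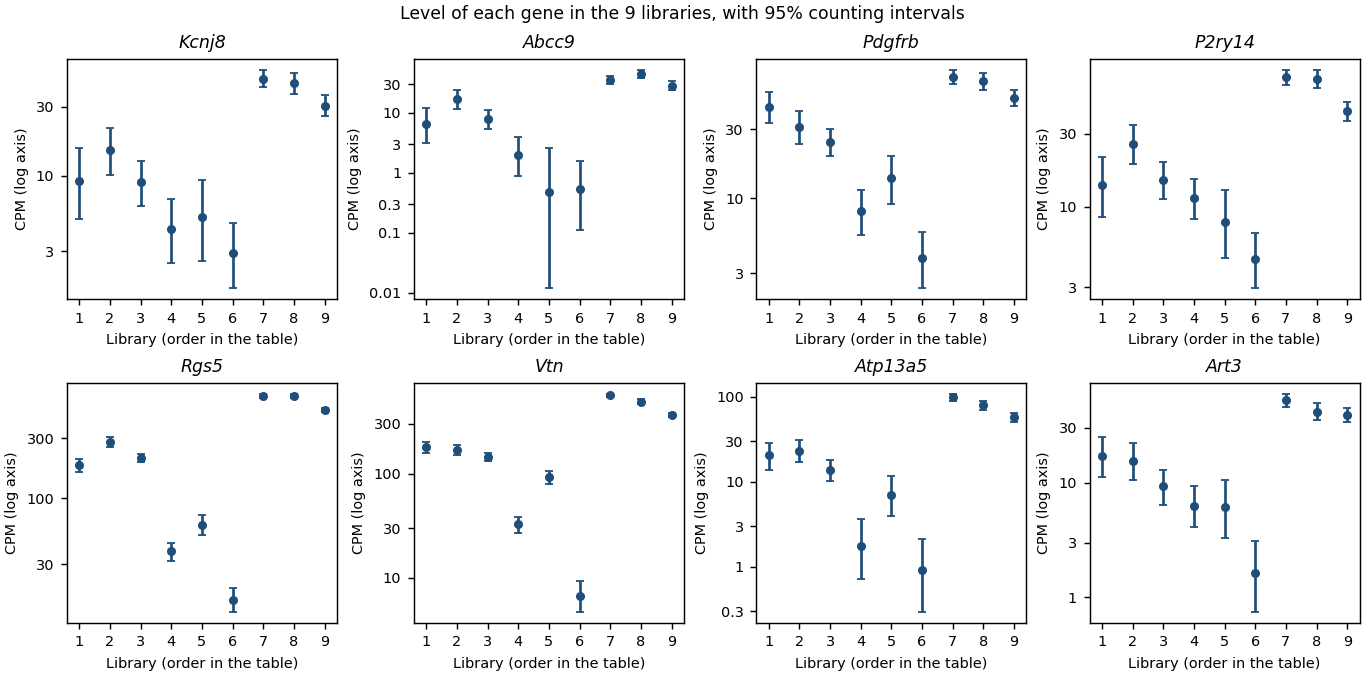
Level of each of the 8 genes in the 9 libraries, in CPM on a log axis with exact 95% counting intervals. In each panel libraries 7, 8 and 9 lie highest and libraries 4, 5 and 6 lowest, for Kcnj8 at 30.6 to 47.0 CPM and 2.91 to 5.18 CPM.

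Within pericyte-like cells a level could be read in the 6 libraries with at least 50 of them, which leaves out libraries 4, 5 and 6. There the genes summed to 7098 CPM in library 9 and to 13231 CPM in library 7, a ratio of 1.86 (1.77 to 1.96). Library 7 held 229 cells of the first cluster and 82 of the second, but library 9 held 89 and 181. Over all libraries the genes summed to 14928 CPM in the first cluster and 6604 CPM in the second. The ratio is thus not one of like cells, and the part of this mix was not tested. Over all cells of the same 6 libraries the sum ran from 432 CPM in library 3 to 1590 CPM in library 7. The share of cells that were pericyte-like, with the second cluster and its endothelial markers included, ran from 0.230% in library 6, 9 cells, to 9.52% in library 8, 335 cells. The order of the libraries by this share was not that of their summed level, since library 8 had the highest share but a sum of 1484 CPM, below library 7. How many pericytes a tissue held and how many survived dissociation cannot be told apart here.

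Within the first pericyte-like cluster, libraries 7, 8 and 9 held 229, 217 and 89 cells and could be set side by side. The sum of the genes was 18856 CPM (18199.9 to 19531), 15273 CPM (14607 to 15961) and 9802 CPM (9162 to 10474). All 8 genes had the order 7, 8, 9 in this cluster. In the second cluster the sums were 7116, 6872 and 5987 CPM, Kcnj8 was highest in library 9 (282 CPM) and Rgs5 in library 8 (4041 CPM), so the order was not shared. In the first cluster Kcnj8 was at 909, 796 and 382 CPM, and the intervals of libraries 7 and 8 overlapped. Vtn was at 7523, 5835 and 3642 CPM and Atp13a5 at 1666, 1121 and 697 CPM, with no overlap between the 3 libraries. The medians were 671, 529 and 858 UMIs per cell, and cells with a UMI of an endothelial marker made up 22.3%, 19.4% and 29.2%. Their part in these values was not tested.

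Outside pericyte-like clusters, VSMCA-like clusters were a main place of several of the genes. They include a cluster of 110 cells whose leading genes hold Gpr34, Siglech and Cx3cr1 beside Pln, Mylk and Myh11. The microglia-like clusters include a cluster of 157 cells that also carried endothelial markers. The part of these mixed clusters was not tested. Rgs5 was at 1598 CPM in VSMCA-like clusters and had 30.3% of its UMIs there. P2ry14 was at 109 CPM (20.5% of its UMIs), Atp13a5 at 85.6 CPM (13.6%) and Art3 at 45.6 CPM (11.8%). Kcnj8 was at 14.3 CPM there (9.32 to 20.9), which overlaps its level in microglia-like clusters, 9.64 CPM (6.24 to 14.2). Abcc9 was at 15.4 CPM (10.2 to 22.2), above its 5.78 CPM in microglia-like clusters (3.24 to 9.53). Vtn was at 1930 CPM in fibroblast-like clusters (1843 to 2021), which held 24.6% of its UMIs over all libraries and 65.3% in library 5, where 128 of 196 lay there. The level of Vtn in a library was therefore not a measure of pericytes alone.

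Pdgfrb reached 143 CPM in VSMCA-like and 108 CPM in fibroblast-like clusters. An astrocyte-like cluster was its largest source in libraries 1, 2 and 3, with 52.3%, 43.3% and 37.8% of its UMIs. No single pericyte-like cluster held more than 17.8% there. Over all libraries Pdgfrb was at 51.8 CPM (149 UMIs) in astrocyte-like clusters against 9.25 CPM in microglia-like ones, a ratio of 5.60 (3.62 to 9.01). It was higher in the former in 6 of the 8 libraries with at least 20 cells of each. Atp13a5 had a ratio of 3.22 (1.96 to 5.50) and was higher in 7 of 8. Rgs5, at 0.599 (0.482 to 0.744), was higher in astrocyte-like clusters in 1 of 8, and Vtn, at 0.747 (0.605 to 0.920), in 3 of 8. The libraries gave unequal numbers of the 2 kinds of cell, with 1247 astrocyte-like cells in library 2 and 987 microglia-like cells in library 7 the most of each. The neighbour Atp13a4, 17120 bases from Atp13a5 on the same strand, was highest in listed astrocytes at 159 CPM, and reads shared between these 2 genes were not tested.

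Art3 was found in ependymal-like clusters, cells that line the ventricles, at 20.3 CPM (15.5 to 26.1), against 8.86 CPM in microglia-like ones. They held 14 of the 25 Art3 UMIs of library 4, 4 of the 13 of library 5 and 7 of the 9 of library 6. Over all libraries Rgs5 was higher than Art3 there, at 66.9 CPM, close to its 82.9 CPM in microglia-like clusters. Among libraries 4 to 9 the level of Art3 there ran from 6.99 CPM in library 7 to 75.4 CPM in library 4. P2ry14 was at 6.49 CPM in pituitary endocrine-like clusters (4.38 to 9.26), which overlaps its 5.78 CPM in microglia-like ones (3.24 to 9.53). In libraries 4, 5 and 6 the largest single contribution to Art3 thus came from cells that were not mural. This was not particular to Art3. The leading cluster there was fibroblast-like for Vtn, and in libraries 4 and 6 it was pituitary endocrine-like for P2ry14. For Rgs5 it was VSMCA-like in libraries 4 and 5.

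Of 41 relatives and partners of the 8 genes, 35 had a row and 15 had at least 50 UMIs in listed cells. None of the 15 was highest in all listed pericytes, against 8.15% of such genes. Of the K-ATP partners and other inward rectifiers only Kcnj10, a channel of glia, passed 50 UMIs, at 359 CPM in astrocytes. Abcc8, which encodes the regulatory subunit of the channel in neurons and endocrine cells, had no UMI in pericytes, where 3 counts give 20.3 CPM.

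Among the ligands, Pdgfb and Pdgfd were highest in endothelial cells (109 and 91.0 CPM) and Pdgfa in VSMCA (334 CPM). The receptor and its ligands thus had their highest levels in different listed cell types. Pdgfra, the alpha receptor, had 14 UMIs in listed pericytes, and all 14 lay in the 46 fibroblast-like cells. The receptor gene P2ry1 had 10 UMIs in listed pericytes, and these too lay in the 46 only.

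Rgs4, next to Rgs5 at 45663 bases, was at 841 CPM in VSMCA and 433 CPM in pericytes. In the 117 pericyte-like cells it was at 743 CPM (570 to 952) and in the 46 it had no UMI. Rgs1 and Rgs2 were highest in microglia. The P2Y receptors P2ry12, P2ry13 and P2ry6 were also highest in microglia, at 2478, 272 and 231 CPM, so P2ry14 was the member of that family with its highest level in pericytes among those with 50 UMIs. Of the vitronectin partners, Itgb1 was highest in VSMCA (435 CPM), Itgb5 in microglia (311 CPM) and Itgav in astrocytes (129 CPM).

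With all listed pericytes, the genes with the profile most like each of the 8 were sought by Pearson's r of log2(CPM + 10) over the 8 types with at least 50 listed cells, as a description over few points that share a library. For Kcnj8 these were Slc6a20a (0.972), Apod and Aimp1, and for Abcc9 Ccdc102a (0.937), Slc16a12 and Apod. For Pdgfrb they were Il34 (0.954), Slc19a1 and Pkd1, and for P2ry14 Mgp (0.972), Ndufa4l2 and Tbx3os1. For Rgs5 they were Tbxa2r (0.987), Enpep and Higd1b. For Vtn they were Slc6a20a (0.964), Colec12 and Pde8b, for Atp13a5 Sept4 (0.975), Pkd1 and Tbx3os1, and for Art3 Col3a1 (0.958), Pcolce and Cldn11. Of the 20 distinct genes, 7 were higher in the fibroblast-like than in the pericyte-like listed pericytes, while 13 were higher in the latter. For Slc6a20a, Aimp1, Slc16a12, Il34, Colec12, Pkd1 and Cldn11 the intervals overlapped, so their direction is not settled beyond counting error. With the 117 cells alone, Rgs5 kept the same 3 genes, Kcnj8 kept Slc6a20a and Aimp1, and Art3 and Abcc9 kept none.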

How the data were processed

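Counts were taken as the authors deposited them: a single table of genes by cells holding UMI counts from 10x Chromium version 2 libraries, without normalization, made with Cell Ranger 2.2.0 on GRCm38 (with R 3.5.3, per the submitters' processing notes). The annotation release is not given in the sources used here. Cell types of library 7 came from the study's barcode list, held here only in part, for 1999 of 3731 cells, so shares of UMIs in listed cells depend on which cells those are. The 8 genes and the gene lists were chosen with earlier results of these data known. Named genes are the 8, their 3 most alike genes, and the family list. Genes that overlap any of the 8 were named for their position. Lum and Igf2 were named for their rank after their values were seen, and the others are cell type markers.

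Counts were summed and given as CPM with exact Poisson intervals, shares with exact Clopper-Pearson intervals, and ratios with intervals from the binomial split of both counts, all at 95%. With 1 library per group, and only library 7 assigned to a group, no test was run. Cells were clustered without the 8 genes (2000 variable genes, 13 principal components, 20 neighbours, Leiden resolution 1), and a cluster was named from at least 3 fixed markers at 2 times the other cells. Thinning drew 500 UMIs per cell and left out cells with fewer. No doublet caller was run and all cells were kept; cells without markers of the other type were an alternative. Limiting pericytes or endothelial cells by cluster, and the first pericyte-like cluster alone, were chosen after seeing the data. Gene positions are from GENCODE vM21. The work was done in Python 3.11.15, with leidenalg 0.10.2 on python-igraph 0.11.9 for clusters, scikit-learn 1.9.0 for neighbours, numpy 2.4.6 and scipy 1.17.1 for values and matplotlib 3.10.9 for plots. The intervals, the thinning and the calls behind the shares of all genes were tested on simulated data.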

Additional observations from a re-analysis of the deposited data

How the results depend on the processing

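Directions turned only under a minimum of 1000 UMIs, which also changed which cells were left. Under it 27 of the 35 listed pericytes left were fibroblast-like and 7 pericyte-like, and the ratio to the next type turned below 1 for Kcnj8 (0.834) and Rgs5 (0.885), so that 6 of the 8 genes stayed highest in pericytes; it fell from 20.6 to 9.76 for Vtn, 22.2 to 5.17 for Art3, 11.6 to 2.70 for Abcc9, 6.12 to 2.08 for P2ry14, 4.31 to 1.89 for Pdgfrb and 12.2 to 1.56 for Atp13a5. At that minimum Kcnj8 stood at only 71.6 CPM in pericytes, and without an interval its turn is not settled beyond counting error. Thinning to 500 UMIs left 7 of the 8 ratios within their counting interval. At 1000 UMIs the summed CPM of the genes in pericytes was 6715 (14081 in the report), the share of their UMIs in pericytes 19.8% (52.2%), and pericytes with at least 3 genes 25.7% (70.2%). The library ratio was 35.0 (43.2), pericyte-like cells numbered 350 (1183), their summed CPM was 6583 (10019.9), and the ratio between libraries within them 1.40 (1.86). Other settings gave a summed CPM in pericytes of 16585 thinned to 500 UMIs, 15224 without mitochondrial and hemoglobin genes, 16442 as a mean over cells, 15655 without cells of mixed markers, and 20188 with pericyte-like pericytes only. The share in pericytes was 64.7% thinned, 56.2% both with clusters for types and without mixed cells, 46.9% with pericyte-like pericytes only, and 60.6% without the endothelial cells in pericyte-like clusters. Pericytes with at least 3 genes were 42.9% at 2 UMIs a gene and 96.6% in the pericyte-like set. The library ratio was 30.4 without mitochondrial, hemoglobin and hormone genes. Pericyte-like clusters summed to 9519 CPM when made with the genes, to 15367 CPM in the 508 cells without an endothelial marker, and to 14928 CPM in the 659 of the first cluster. Counting those above, 42 levels and 52 ratios of single genes moved by less than their counting interval and 30 and 18 by more, beside the 2 ratios that turned. No paired analysis was run, because only library 7 is assigned a region and sleep group here. Levels from under 10 UMIs, as for Abcc9 in libraries 4 to 6, are known only within wide counting intervals.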
